A study of Mus musculus with 16 samples.

Results

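A run of 10 neighbouring genes of mouse chromosome 18 was followed in splenic memory CD4+ T cells that lacked HP1γ or HP1α. The members, in chromosomal order Me2, Ska1, Cxxc1, Mbd1, Cfap53, Myo5b, Acaa2, Lipg, Dym and Smad7, were chosen by name because Mbd1, Cfap53 and Myo5b were known to be raised in HP1γ KO cells and the others lie on either side of them. They are 10 of the 56748 genes in the deposited tables, and all 10 were found by symbol. Since the HP1γ comparison chose them, their values in it are given as a description and carry no test. The comparison of HP1α KO with its littermates did not take part in the choice.

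The data were RNA-Seq of memory CD4+ T cells sorted by flow cytometry from the spleen as CD4+CD25low/-CD62L-CD44high, in 16 samples of 4 groups of 4. In the HP1γ line all mice were homozygous for the floxed Hp1g allele, and the HP1γ KO mice also carried the Cd4-cre transgene, whereas their HP1γ WT littermates did not. The presence of Cre and the loss of HP1γ therefore cannot be told apart, and the deletion was limited to cells with a history of Cd4 promoter activity. In the HP1α line the floxed Hp1a allele had been excised by CMV-cre in the germline, and HP1α KO and HP1α WT were the -/- and +/+ littermates of heterozygous crosses, so that every cell of the animal lacked HP1α. Mice were young adult males of a mixed genetic background, and the labels do not tie a sample to an animal, so that the spread between samples may be partly technical. Fewer cells of a type and less RNA per cell cannot be told apart in such bulk samples.

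HP1α (gene Cbx5) and HP1γ (gene Cbx3) are chromatin proteins that bind methylated histone H3 tails in heterochromatin and take part in gene silencing. Several of the neighbours act on chromatin themselves. MBD1 binds methylated CpG and partners with the histone methyltransferase SETDB1, and CFP1, the product of Cxxc1, binds unmethylated CpG and belongs to the SET1 complexes that methylate histone H3 at active promoters. The others have no common role: MYO5B is a motor of RAB11 recycling endosomes known from polarized epithelia, CFAP53 is a protein of cilia, and SMAD7 is the inhibitory SMAD of TGF-beta signalling, a pathway that restrains T cells.

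On GRCm39, Mbd1 lies on the plus strand at chr18:74400676-74415803 with 16 exons in its canonical transcript. Cfap53 follows on the same strand at chr18:74416161-74493057, 357 bp after the end of Mbd1. Myo5b, also on the plus strand, spans chr18:74574007-74907382 and starts 80.9 kb after the end of Cfap53. These genes are consecutive among the protein-coding genes of the annotation and together cover 506.7 kb. Upstream lie Me2 (chr18:73900981-73948865, minus strand), Ska1 (chr18:74328365-74349085, minus) and Cxxc1 (chr18:74349150-74355347, plus). Ska1 and Cxxc1 point away from each other with 64 bp between them, and 45.3 kb separate the end of Cxxc1 from the start of Mbd1. Downstream, Acaa2 (chr18:74911948-74953492, plus) starts 4.57 kb after the end of Myo5b. It is followed by Lipg (chr18:75072393-75094339, minus), Dym (chr18:75151763-75422911, plus) and Smad7 (chr18:75500374-75529006, plus). The span from the first to the last member is 1.63 Mb and holds 35 annotated genes, 14 of them protein coding.

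In HP1γ KO cells, Mbd1, Cfap53 and Myo5b were higher than in HP1γ WT littermates. The log2 fold change was 1.02 for Mbd1, 2.42 for Cfap53 and 5.92 for Myo5b. Only these ratios rose in chromosomal order, while the gains in absolute level did not. The ratios of Cfap53 and Myo5b rest on 30 and 17 counts in all HP1γ WT samples together. A smaller log2 fold change of 0.27 was seen for Cxxc1, the next protein-coding gene upstream of Mbd1. The remaining tested members, Me2, Ska1, Acaa2, Dym and Smad7, had log2 fold changes between -0.16 and 0.04. Of 14975 genes tested over the whole genome with edgeR's quasi-likelihood test, 29 (0.194%) passed both thresholds for a call (adjusted p below 0.05, and more than 1 log2 unit of difference) with a higher level in HP1γ KO, and 3 of the 9 members that passed the filter on low counts were among them. This count is fixed by how the members were chosen. In either direction 35 genes (0.234%) were called, and the same 3 were the only ones among 353 tested genes of chromosome 18, and among 17 tested genes from 1 Mb before Me2 to 1 Mb after Smad7.

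**Figure D1:**
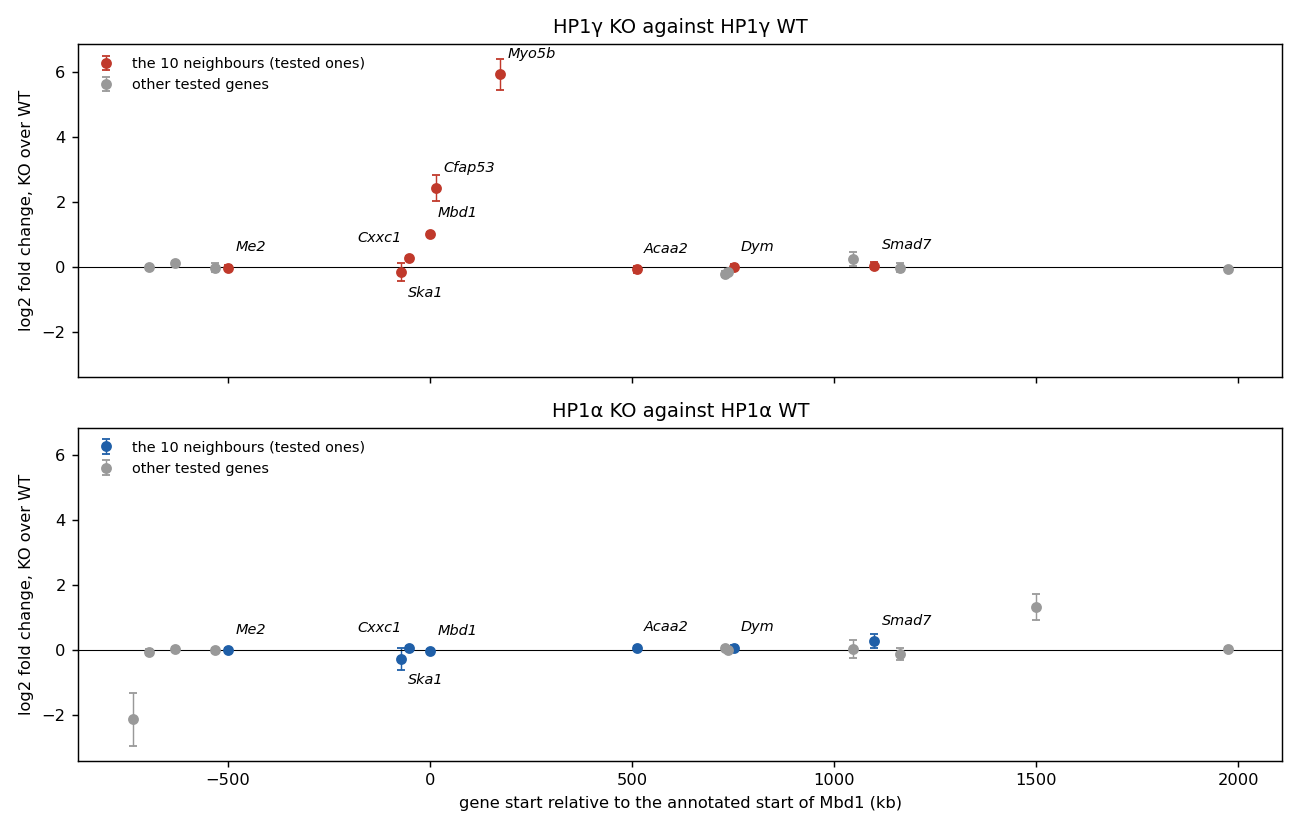
Log2 fold change of KO over WT (points, with the standard error as bars) against the distance of each gene's start from the start of Mbd1 in kb, for the tested genes within 1 Mb of the members. In the HP1γ line (top) Mbd1, Cfap53 and Myo5b stand at 1.02, 2.42 and 5.92 while Ska1 and Acaa2 on either side are at -0.16 and -0.07, and in the HP1α line (bottom) the tested members lie between -0.26 and 0.30; 2 low-count genes that are not members lie further from 0.

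Mbd1 was the best measured of the raised genes. On the CPM scale (counts per 1000000, TMM-scaled), its level was 131, 136, 145 and 143 in the 4 HP1γ KO samples and 66.3, 67.8, 69.1 and 72.0 in the 4 HP1γ WT samples. Every KO sample lay above every WT sample, with a gap far wider than the range within either group. The means were 139 ± 6.34 and 68.8 ± 2.43 CPM (SD, n = 4 each), a ratio of 2.02. The fitted log2 fold change was 1.02 with a standard error of 0.0590, so that Mbd1 sat just above the fold threshold used for a call.

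Cfap53 was close to the limit of detection outside HP1γ KO cells. Its estimated counts were 30, 24, 37 and 63 in HP1γ KO and 4, 6, 7 and 13 in HP1γ WT. In CPM these were 1.14, 0.816, 1.21 and 1.62 against 0.130, 0.153, 0.213 and 0.395. The groups did not overlap, although the gap between them was narrow. The log2 fold change was 2.42 with a standard error of 0.388. Cfap53 passed the filter on low counts only through the KO samples. With so few counts its call was fragile: it was past both thresholds in 7 of the 16 alternative settings in which it could be tested, and leaving out any of the 8 samples other than HP1γ WT replicate 4 ended the call.

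Myo5b showed the largest relative difference of the 9 tested members and the largest standard error. Its estimated counts were 223, 230, 118 and 411 in HP1γ KO and 1, 8, 2 and 6 in HP1γ WT. The corresponding CPM were 8.45, 7.82, 3.85 and 10.5 against 0.0324, 0.204, 0.0608 and 0.182. The lowest KO sample, replicate 3, thus lay well above the highest WT sample. The log2 fold change was 5.92 with a standard error of 0.471 and a 95% interval of 4.88 to 6.97. On TPM with a pseudocount of 0.1 or 1 it was 3.62 or 1.64. As with Cfap53, only the KO samples carried Myo5b past the filter, and the WT mean rests on 17 counts in all, so the ratio is imprecise.

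The 3 genes rose in all 4 HP1γ KO samples, but their levels did not follow each other sample by sample. The coefficient of variation over the KO samples was 4.57% for Mbd1, 27.5% for Cfap53 and 36.5% for Myo5b. Replicate 3 had the highest Mbd1 and the lowest Myo5b, whereas replicate 4 had the highest Cfap53 and Myo5b. In absolute terms the differences did not follow the chromosomal order: the mean gain was 70.1 CPM for Mbd1, 0.972 for Cfap53 and 7.55 for Myo5b. On the length-corrected TPM scale, Cfap53 in the KO samples amounted to 2.73%, 1.67%, 2.57% and 2.61% of Mbd1. Myo5b amounted to 4.92%, 2.74%, 1.26% and 5.01%. The large relative gains of Cfap53 and Myo5b were therefore to levels that stayed a small share of Mbd1.

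Cxxc1, upstream of Mbd1, was the only other member whose HP1γ samples did not overlap. Its CPM were 185, 181, 195 and 186 in HP1γ KO and 148, 156, 163 and 157 in HP1γ WT. The difference was 30.8 CPM on a mean of 156, a log2 fold change of 0.27 with a standard error of 0.0568. Its adjusted p depended on the tool, at 0.115 in the main edgeR fit and 0.00197 with DESeq2. It was under 0.05 in 1 of 17 alternative settings, and the fold threshold was passed in none. Groups that did not overlap with the KO higher were found for 3.21% of all tested genes in this comparison. Cxxc1, Mbd1, Cfap53 and Myo5b were also higher in all 4 HP1γ KO samples than in each of the 12 other samples, a pattern met by 1.21% of 15759 tested genes. Mbd1, Cfap53 and Myo5b were chosen because they were raised in HP1γ KO, so the share is no test of them. For Cxxc1 the margin was narrow, with 181 CPM in the lowest HP1γ KO sample and 177 CPM in the highest of the others, an HP1α KO sample. No other member had this pattern.

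**Figure D2:**
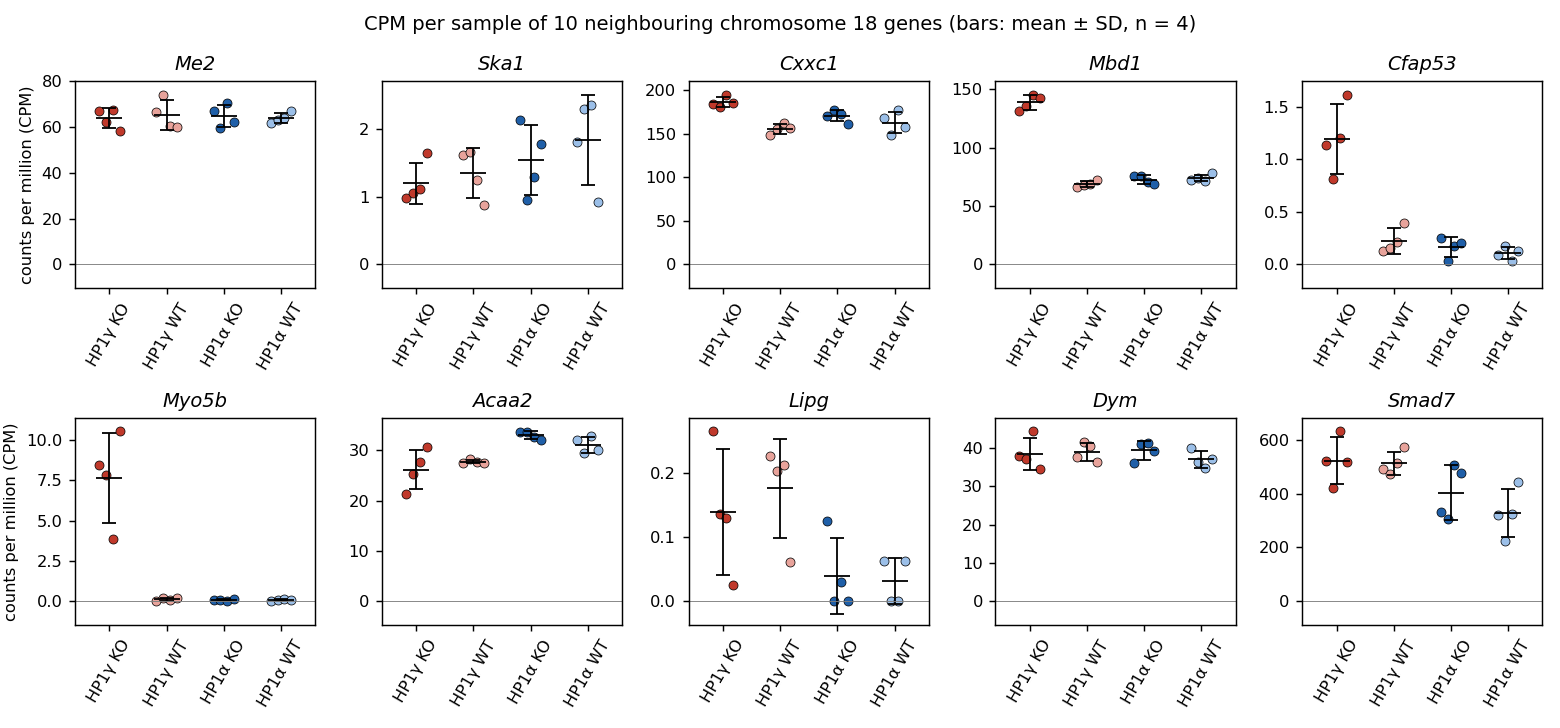
CPM (vertical axis, own scale per gene) of the 10 genes in chromosomal order, with 1 point per sample, the mean as a dash and the SD as bars (n = 4 per group). Only in the panels of Cxxc1, Mbd1, Cfap53 and Myo5b do all 4 HP1γ KO samples lie above the other 12.

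The flanking members overlapped between HP1γ KO and HP1γ WT. Ska1, which encodes a subunit of the kinetochore-bound SKA complex, measured 0.985, 1.05, 1.11 and 1.64 CPM in KO and 1.62, 1.66, 1.25 and 0.881 in WT. Its start lies next to that of Cxxc1, yet its log2 fold change was -0.16, with a standard error of 0.279 that leaves room for a moderate difference in either direction. Acaa2, the mitochondrial thiolase that closes the fatty acid oxidation cycle, lies directly behind Myo5b on the same strand. It measured 21.3, 25.3, 27.6 and 30.6 CPM in KO and 27.6, 28.3, 27.7 and 27.5 in WT. The log2 fold change was -0.07, with a 95% interval of -0.30 to 0.15. The interval stops far short of the difference of its neighbour Myo5b, and the KO samples spread more widely than the WT samples.

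Further genes at the edges of the span gave narrow intervals around 0. Me2, the mitochondrial malic enzyme, had a mean of 63.7 ± 4.39 CPM in HP1γ KO and 65.2 ± 6.60 in HP1γ WT, and an interval of the log2 fold change of -0.21 to 0.16. Dym, which is mutated in a human skeletal dysplasia and acts in the Golgi, ranged from 34.4 to 44.3 CPM in KO and from 36.2 to 41.6 in WT, with an interval of -0.21 to 0.18. Smad7 was the most abundant member on both scales, at 522, 422, 633 and 518 CPM in KO and 491, 474, 514 and 575 in WT. Its interval was -0.21 to 0.28. None of the 3 intervals reached the log2 fold change of Mbd1. Lipg, the endothelial lipase gene, was not measurable in these cells: its estimated counts lay between 0 and 8 in all 16 samples, and it was not tested.

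Genes that lie between the members but are not in the set showed small differences or stood at very low counts. Rpl17, a ribosomal protein gene between Lipg and Dym, had mean levels of 936 CPM in HP1γ KO and 1097 in HP1γ WT. Its log2 fold change was -0.22 with a standard error of 0.0796. BC031181, next to Rpl17, had 43.9 and 49.0 CPM (-0.15, standard error 0.0762). The lncRNA gene Gm20544, close to Smad7, had 3.25 and 2.76 CPM (0.24, standard error 0.212). None of these was called in any comparison. The stretch from Cxxc1 to Acaa2 otherwise held only pseudogenes and non-coding genes at or near 0. The annotated gene inside Myo5b on the opposite strand, 1700120E14Rik, had no count in any sample. The pseudogene Gm5690, between Cxxc1 and Mbd1, had 3, 1, 3 and 3 counts in HP1γ KO, 0 in all HP1γ WT samples and at most 2 in the HP1α line, too few to compare; it was picked out after its values were seen. With TMM scaling the median log2 fold change of all tested genes was 0.00, so these values needed no shift.

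The levels of the genes relative to each other were compared on TPM, which correct for transcript length. In HP1γ WT cells the order was Smad7 (209 ± 25.1 TPM), Cxxc1 (120 ± 12.6), Me2 (42.1 ± 3.23), Mbd1 (37.2 ± 3.04), Acaa2 (31.8 ± 1.41), Dym (26.4 ± 2.20), Ska1 (1.20 ± 0.328), Cfap53 (0.373 ± 0.372), Myo5b (0.122 ± 0.106) and Lipg (0.0870 ± 0.0474). Neighbours in this order whose samples overlapped were Me2 and Mbd1, and all from Ska1 to Lipg. The order was the same in HP1α KO and HP1α WT, where Smad7 overlapped Cxxc1 and Mbd1 overlapped Acaa2 as well, while Ska1 stood clear of Cfap53.

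In HP1γ KO cells Mbd1 moved from rank 4 to rank 3, at 78.3 ± 2.92 TPM, and no longer overlapped Me2 at 44.9 ± 2.73. Myo5b moved from rank 9 to rank 7, at 2.70 ± 1.37 TPM. It stood beside Cfap53 at 1.88 ± 0.376 and Ska1 at 1.12 ± 0.378, each overlapping the next. The TPM of Cfap53 in HP1γ WT replicate 4 was 0.927 against 0.131 to 0.231 in the other HP1γ WT samples, a wider gap than on CPM. All 4 KO samples still exceeded it, the lowest at 1.31 TPM.

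**Figure D3:**
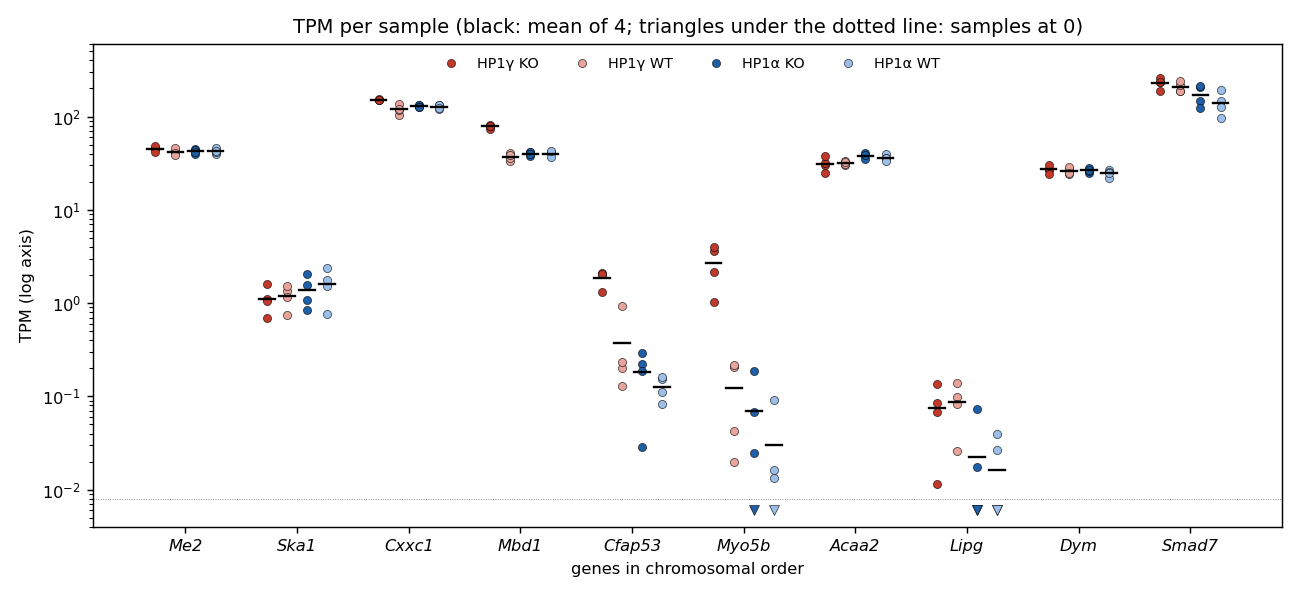
TPM per sample (logarithmic vertical axis) of the 10 genes in chromosomal order, coloured by group, with the mean of 4 samples as a black line and samples listed at 0 as triangles. Smad7 and Cxxc1 are the most abundant and Lipg the least; Mbd1, Cfap53 and Myo5b are set apart in HP1γ KO, at means of 78.3, 1.88 and 2.70 TPM.

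The HP1α line, which did not choose the genes, showed no such difference for Mbd1, and Cfap53 and Myo5b had few counts there. Mbd1 measured 76.0, 75.6, 70.2 and 68.9 CPM in HP1α KO and 72.6, 73.8, 71.7 and 77.9 in HP1α WT. The groups overlapped throughout, the log2 fold change was -0.03 with a standard error of 0.0584, and the edgeR quasi-likelihood test gave an adjusted p of 0.973 (0.923 to 1.00 over the alternatives). The 95% interval of -0.16 to 0.10 excludes a difference as large as the one seen in the HP1γ line. Cfap53 had 10, 1, 6 and 8 counts in HP1α KO and 3, 7, 1 and 4 in HP1α WT, and Myo5b had 2, 3, 0 and 4 against 0, 2, 4 and 2. Both fell under the filter on low counts, and an edgeR fit without the filter called neither. Its log2 fold changes were 0.58 for Cfap53 and -0.02 for Myo5b. Summed over samples, Cfap53 had 25 counts in HP1α KO and 15 in HP1α WT, too few to settle whether it differed. Summed over samples, Myo5b had 9 counts in the 4 HP1α KO samples and 8 in the 4 HP1α WT samples, whereas the 4 HP1γ KO samples held 982.

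None of the 7 tested members was called in HP1α KO against HP1α WT, where edgeR called 0 of 14881 genes (0%) and 635 genes had an unadjusted p under 0.05. DESeq2 called 2 genes there and limma on log2 TPM called 3. The log2 fold change of Cxxc1 was 0.07 (interval -0.07 to 0.21), that of Acaa2 was 0.08 (-0.05 to 0.22), that of Dym was 0.09 (-0.07 to 0.25) and that of Me2 was 0.02 (-0.13 to 0.16). For these genes differences beyond 0.25 log2 units fell outside the intervals. Ska1 at -0.26 (-1.01 to 0.50) and Smad7 at 0.30 (-0.17 to 0.76) were measured less sharply. Smad7 ranged from 306 to 506 CPM in HP1α KO and from 225 to 443 in HP1α WT, so its mean difference of 75.5 CPM was smaller than the SD of either group. Lipg had 6 counts in the HP1α KO samples and 4 in the HP1α WT samples.

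The WT littermates of both lines were compared to ask how far the control levels of these genes depend on the line. The HP1γ WT samples also took part in the comparison that chose the members, and line and colony cannot be told apart. Smad7 was lower in HP1α WT than in HP1γ WT. Its CPM were 322, 225, 326 and 443 in HP1α WT and 491, 474, 514 and 575 in HP1γ WT, without overlap, as in 10.7% of tested genes in that direction. The log2 fold change was -0.64 with a standard error of 0.167, and edgeR gave an adjusted p of 0.0333. The adjusted p stood between 0.00179 and 0.0961 over 17 alternatives and was under 0.05 in 9 of them. It rose to between 0.0560 and 0.0727 without any single HP1γ WT sample or without HP1α WT replicate 3, and to 0.0961 without HP1α WT replicate 1, while the difference itself kept between -0.82 and -0.49. Differences between the WT groups were common: 12.8% of 14804 tested genes had an adjusted p under 0.05 (8.25% lower in HP1α WT), and 1 of the 7 tested members (14.3%) is a share near that background. With the fold threshold added, 1.9% of tested genes and none of the members were called.

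The other members did not differ between the WT groups past the threshold. Acaa2 was 31.1 ± 1.59 CPM in HP1α WT and 27.8 ± 0.364 in HP1γ WT. These samples did not overlap, as in 8.82% of tested genes in that direction, and the log2 fold change of 0.16 had an adjusted p of 0.134 by edgeR. Mbd1 differed by 0.10 (interval -0.03 to 0.24, edgeR adjusted p = 0.297). Ska1 differed by 0.44 (-0.27 to 1.16), Cxxc1 by 0.06, Me2 by -0.03 and Dym by -0.08. Lipg had 4 counts in HP1α WT and 24 in HP1γ WT, too few for the filter.

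Within 1 Mb of the members, Mex3c (log2 fold change -0.49) and Ctif (-0.86) were also lower in HP1α WT by the edgeR adjusted p, at 0.00737 and 0.00544. A copy of 5_8S_rRNA was the only gene called there by both thresholds, with 10 to 75 counts in HP1α WT and 2 to 5 in HP1γ WT. Reads of rRNA copies cannot be assigned to a single gene, and this value is uncertain.

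**Figure D4:**
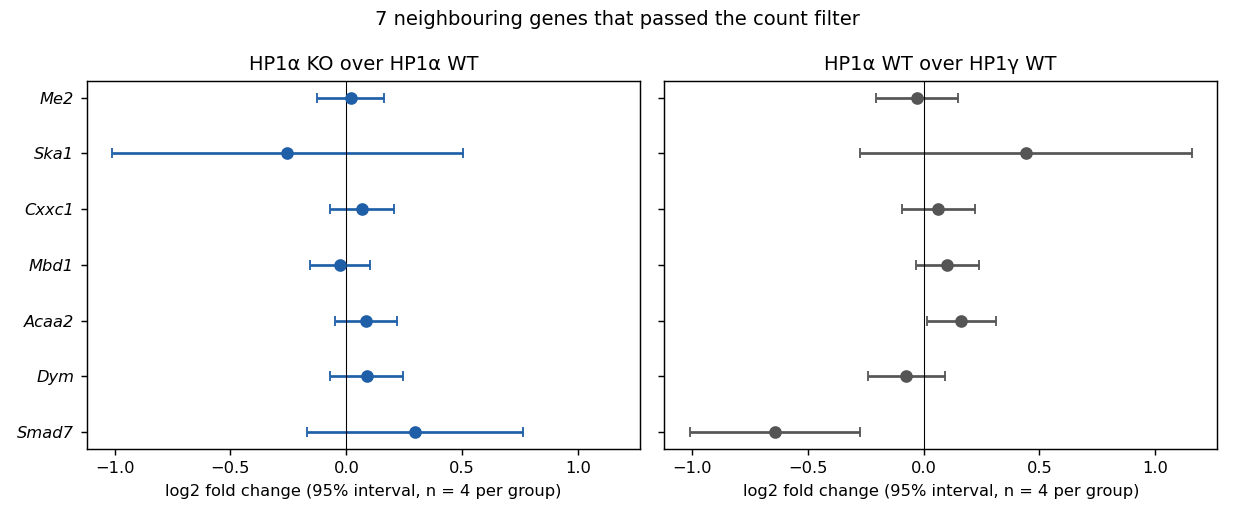
Log2 fold change (point) with its 95% interval (bar) for the 7 members that passed the count filter, in HP1α KO over HP1α WT (left) and in HP1α WT over HP1γ WT (right), n = 4 samples per group. All intervals on the left include 0, and on the right Smad7 at -0.64 and, by a small margin, Acaa2 at 0.16 exclude it, before adjustment.

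Gene lists were drawn up by the roles of the members, with 58 genes besides the members. In HP1γ KO against HP1γ WT, 46 of these were tested and 0 were called by edgeR's adjusted p, beside 0.327% of all tested genes. Among partners of MBD1, Setdb1 had a log2 fold change of -0.02 and Atf7ip of 0.23, and Mbd2, which also binds methylated CpG, had -0.18. Setd1a, the catalytic subunit of a SET1 complex, had 0.13. Myo5a, another class V myosin, had 0.29, with 54.5 CPM in HP1γ KO and 45.0 in HP1γ WT, and Rab11a had -0.07. The axonemal gene Cfap45 had 0.46, at under 1 CPM in every group mean. Only 2 of the 8 other axonemal genes on the list passed the filter on low counts, so the list says little about genes of cilia.

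In HP1α KO against HP1α WT, 47 of the 58 genes were tested and 0 were called. Between the WT groups, 3 were higher and 4 lower in HP1α WT by edgeR's adjusted p, of 44 tested, beside 12.8% of all tested genes. Setdb1 (0.36), Atf7ip (0.39) and Rbbp5 (0.31), a core subunit of the SET1 complexes, were higher. Rab11fip1 (-0.76), a RAB11 effector, was lower. The other genes called lower were Skil (-1.21), Smad3 (-0.34) and Tgfbr2 (-0.40). Together with Smad7 they made 4 of the 8 tested genes of the TGF-beta SMAD list. That list was drawn up around Smad7, no test of it as a set was run, and line and colony cannot be told apart. SKIL, like SMAD7, is a feedback inhibitor of the pathway, while Tgfbr2 encodes a receptor subunit and Smad3 a transducer. The median of that list was -0.28, with 0.02 over all tested genes.

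The genes whose pattern over the 16 samples was most like that of the raised members lay on other chromosomes. Likeness was measured by the root mean square difference of log2 CPM, each gene centred on its own mean, over 15759 genes. Closest to Mbd1 were Oxsr1 (0.137, chromosome 9), Naip6 (0.184) and Rasgrf2 (0.214, both on chromosome 13). Oxsr1 had 144 CPM in HP1γ KO against 79.2 in HP1γ WT, and 75.6 and 73.4 in HP1α KO and HP1α WT, levels much like those of Mbd1. Closest to Cfap53 were Shisa6 (0.603), Gm37240 (0.651) and Vmn2r96 (0.697). Closest to Myo5b were Gm6093 (1.06), Dnah12 (1.20), a heavy chain of axonemal dynein, and Gm49215 (1.28). Dnah12, which is on none of the lists, had 7.56 CPM in HP1γ KO and 0.573 in HP1γ WT. Among the raised members themselves the ranks were uneven. For Myo5b, Cfap53 came at rank 8 and Mbd1 at rank 369. For Cfap53, Mbd1 came at rank 94 and Myo5b at rank 15185. For Mbd1, Cfap53 came at rank 14878 and Myo5b at rank 15680. The measure reflects the size of a difference as well as its shape.

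The labels of the libraries were checked on the targeted genes and on cell markers. Cbx3 was 50.2, 46.3, 45.9 and 47.5 CPM in HP1γ KO and 92.4, 90.1, 73.4 and 82.0 in HP1γ WT, without overlap, and the residual counts are of the whole gene, not of the deleted part. Cbx5 was 23.0 to 29.0 CPM in HP1α KO and 33.8 to 54.0 in HP1α WT, without overlap. Its log2 fold change was -0.58 with an edgeR adjusted p of 0.946, so it was not called. In HP1γ KO, Cbx5 was 20.1 to 29.8 CPM. The HP1γ WT samples, with a mean of 31.3 CPM, also overlapped those of HP1α KO. The level of Cbx5 therefore set HP1α KO apart from its littermates but not from the samples of the HP1γ line. Totals ran from 26694045 to 40199637 counts per sample, so that 3 counts, the floor used here, correspond to about 0.1 CPM. Outside HP1γ KO the group means were 0.108 to 0.222 CPM for Cfap53, 0.0621 to 0.120 for Myo5b and 0.0314 to 0.176 for Lipg, at or little above that level. The summed level of 5 CD4+ T cell markers was 3292 to 3883 TPM in all samples and that of 4 B cell markers 5.44 to 18.8 TPM. Of the 2 CD8 T cell markers, Cd8a reached 4.56 TPM and Cd8b1 13.5 TPM in HP1γ KO, and 2.07 and 7.07 TPM in HP1γ WT, with a median sum of 8.35 and 7.25 TPM. Foxp3, the regulator of regulatory T cells, was present at 34.2 to 90.0 TPM in all groups. Hbb-bs and Alas2, the 2 erythroid markers, summed to 98.4 to 1509 TPM in HP1γ KO (median 1137), 53.8 to 651 in HP1γ WT (median 324), 38.4 to 218 in HP1α KO and 21.0 to 622 in HP1α WT. The 4 myeloid markers summed to 51.4 to 68.3 TPM in HP1γ KO and 34.0 to 54.7 in HP1γ WT, and 34.0 to 125 over all 16 samples. The part of these cells in the levels of Mbd1, Cfap53 and Myo5b was not tested.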

How the data were processed

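Counts and TPM of 16 samples were used, grouped by the labels' genotype. In the nf-core pipeline of the authors, Trim Galore trimmed the reads, STAR aligned them on GRCm39 and Salmon quantified the genes. The authors deposited estimated counts, of which 11.6% were not whole. The deposited TPM sum to 1000000 per sample and keep no depth. The library kit was stranded. The study's methods leave out 1 HP1γ library for poor quality; whether it is among these 16 is not given in the sources used here. The treatment label describes a cell transfer, which goes against the study's account, and was left out.

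Counts were rounded and tested with edgeR 4.0.16 in R 4.3.3 (TMM, filterByExpr with a minimum count of 10, quasi-likelihood test, Benjamini-Hochberg adjustment over all tested genes), in a fit of 8 samples per comparison. A call needed an adjusted p below 0.05 together with more than 1 log2 unit of difference. CPM were TMM-scaled over the 16 samples. Alternatives were DESeq2 1.42.0, limma 3.58.1 on log2 TPM with a pseudocount of 1 or 0.1, RLE factors, no filter or at least 10 counts in every sample, a robust fit, all 16 samples in 1 fit, a replicate block, and leaving out each sample. Scripts were tested on simulated data. Positions are from GENCODE on GRCm39, which held 56017 of the 56748 genes and differs from the annotation release behind the counts. The members and lists were chosen with earlier results of these data known. Named genes were the members, the targeted genes, genes between the members with a mean of at least 1 CPM, those called nearby, listed genes that were called or define a list, and the 3 most alike of Mbd1, Cfap53 and Myo5b; 1700120E14Rik and Gm5690 were named outside this rule, after their values were seen. The sequences of the genes are not reported here.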

Additional observations from a re-analysis of the deposited data

Results flagged for a closer look

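Lipg in HP1γ WT was marked because its lowest sample lay far from the other 3 of the group. It measured 0.0608 CPM in replicate 4 and 0.204 to 0.227 CPM in the others, a gap of 0.862 of the whole range. The counts behind it were 2 against 7, 8 and 7. Such a gap appears by chance in about 1 in 20 groups, and 40 groups of member values were examined.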

How the results depend on the processing

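No member changed direction past a threshold under any setting tried, and the counts that did not stay within 1.5 times are as follows. In HP1γ KO against HP1γ WT, the 35 called genes became 97 with DESeq2, 18 with at least 10 counts in every sample, 16 and 18 with limma on log2(TPM + 1) and log2(TPM + 0.1), and 23 to 32 without 1 sample. The 29 called higher became 73, 15, 14 and 16 under these 4 settings and 21 to 28 without 1 sample. The 3 members called, and the 3 genes called within 1 Mb, became 1 with at least 10 counts in every sample, since Cfap53 and Myo5b are then not tested, and 1 with limma on log2(TPM + 1), where Cfap53 and Myo5b kept folds above the threshold but not the adjusted p; they were 2 to 3 without 1 sample. On the log2 scale the difference ran from 1.00 to 1.07 for Mbd1, from 1.09 to 2.83 for Cfap53 and from 1.64 to 6.32 for Myo5b, the lowest of the latter pair with limma on log2(TPM + 1). In HP1α KO against HP1α WT, the count of 0 became 2 with DESeq2, 1 without a filter, 1 with a robust fit, 3 with either limma fit and 0 to 3 without 1 sample, none of them a member. In HP1α WT against HP1γ WT, the 282 became 108 and 177 with limma and 122 to 343 without 1 sample, and the 1 gene called within 1 Mb became 0 with the stricter filter, 4 by the adjusted p alone and 0 to 1 without 1 sample. The replicate numbers gave no clear pairing of the samples, although 4 same-numbered correlations per comparison are too few to exclude one. These ran from -0.00582 to 0.182 in the HP1γ line and from 0.0792 to 0.272, all positive, in the HP1α line. Between the WT groups they ran from -0.197 to -0.0983. In these comparisons 1, 2 and 0 of 4 samples correlated best with their own number. With a replicate block, 38, 0 and 125 genes were called. Depth limits Cfap53, Myo5b and Lipg, which stood at 0 to 13 counts in all samples outside HP1γ KO. The causes of the other shifts were not tested.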
